A study of Mus musculus with 2031 samples.

Results

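This report describes 35 genes of glycolysis, lactate handling and glycogen metabolism in single cells of the adult mouse cortex and hippocampus. They were chosen by gene symbol, and all 35 were found among the 49671 genes of the count files. That rule uses no measured value, but the list was drawn up with earlier results of these data known. Cortex and hippocampus came from C57BL/6J mice at postnatal day 56 with no genetic change and no treatment. Cells were released with papain, cleared of myelin on Percoll and sorted as ACSA-2 positive, O1 negative and 7-AAD negative, a gate that enriches live astrocytes and depletes oligodendrocytes. Full-length cDNA was made cell by cell in plates with Smart-seq2, without molecular identifiers, so counts are reads and not molecules. The 2 cortical suspensions, 1C and 2C, each came from 1 animal, and those animals were littermates. The 2 hippocampal suspensions, 1H and 2H, were each pooled from 4 littermates of other litters. Region, litter and pooling therefore cannot be told apart. By the labels, the libraries of all cortical astrocytes were amplified in thermal block 1, as were those of 13.2% and 14.3% of the hippocampal astrocytes of 1H and 2H, so the block is also nearly bound to region.

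The 2030 cells with a count file held from 600758 to 3238215 gene counts, with a median of 1458411. Types were taken from the authors' list of typed cells. It gave 1781 astrocytes here, split into 657 AST1, 555 AST2, 452 AST3, 91 AST4 and 26 AST5 cells, with 27, 12, 48 and 47 mural cells in 1C, 2C, 1H and 2H, and 30 endothelial, 17 neuronal, 11 microglial and 9 oligodendrocytic cells. That typing was clustered from these same counts, so a difference between types or subtypes is not independent evidence about a gene. Cells were not treated as replicates. Counts were summed over the cells of a type or subtype in each suspension, and sums of at least 5 cells were compared. A level is given as CPM, a gene's counts scaled to a common total of all gene counts, and between genes as CPM per kilobase of exon. A member was called where its adjusted p was under 0.05, after Benjamini-Hochberg adjustment over all genes tested with edgeR's quasi-likelihood test. The 6 astrocyte markers summed to 19345 to 22476 CPM in the astrocytes of each suspension and to at most 370.6 CPM in mural, 31.5 CPM in endothelial and 18.5 CPM in neuronal cells. Mural markers reached 10020 to 17198 CPM in the endothelial sums, against 48149 to 57342 CPM in mural cells. Only 8 of the 30 endothelial cells had fewer than 2 markers of another type at 10 CPM or more, and the part of such RNA in the endothelial values was not tested.

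Glucose enters brain cells through facilitative carriers, is phosphorylated by hexokinases, and is split by aldolase into 3-carbon sugars that are oxidised to pyruvate. Lactate dehydrogenase interconverts pyruvate and lactate, and monocarboxylate carriers move lactate across membranes. Pyruvate can instead enter mitochondria through pyruvate dehydrogenase or pyruvate carboxylase. Glycogen, which in the brain is stored mainly in astrocytes, is built from UDP-glucose by glycogen synthase and branching enzyme and broken down by glycogen phosphorylase. Several of these steps are coded by more than 1 gene, and the products of such gene pairs differ in tissue and in kinetics.

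The promoters of 4 members are shown first because the results turn on them. Ldha and Ldhb, the partner genes of lactate dehydrogenase, took different shares in different cell types. Gapdh and Pfkm, for glyceraldehyde-3-phosphate dehydrogenase and the muscle form of phosphofructokinase, were both lower in AST4. Each line gives the 250 bases before the gene's first RefSeq start on GRCm38.p6, 5′ to 3′ on the gene's strand. Capitals mark ACGTG on either strand, and CACGTG, which holds it on both strands, is counted once. ACGTG is the core of the site bound by hypoxia-inducible factors, and CACGTG is the classic E-box.
Ldha, chr7:46845554-46845803, plus strand: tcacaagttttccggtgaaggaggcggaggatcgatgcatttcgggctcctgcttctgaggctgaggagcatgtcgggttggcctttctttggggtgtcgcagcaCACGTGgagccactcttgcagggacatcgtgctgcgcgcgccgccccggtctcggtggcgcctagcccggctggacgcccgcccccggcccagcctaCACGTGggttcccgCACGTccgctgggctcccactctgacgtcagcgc
Ldhb, chr6:142507958-142508207, minus strand: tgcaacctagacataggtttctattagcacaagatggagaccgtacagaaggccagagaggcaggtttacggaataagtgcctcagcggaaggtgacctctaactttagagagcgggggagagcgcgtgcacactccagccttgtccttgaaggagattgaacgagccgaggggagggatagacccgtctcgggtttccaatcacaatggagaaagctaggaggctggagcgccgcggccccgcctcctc
Gapdh, chr6:125165774-125166023, minus strand: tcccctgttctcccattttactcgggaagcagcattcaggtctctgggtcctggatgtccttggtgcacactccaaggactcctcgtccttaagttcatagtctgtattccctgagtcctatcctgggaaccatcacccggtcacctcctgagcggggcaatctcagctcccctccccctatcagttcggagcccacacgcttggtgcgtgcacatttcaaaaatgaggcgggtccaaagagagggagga
Pfkm, chr15:98092339-98092588, plus strand: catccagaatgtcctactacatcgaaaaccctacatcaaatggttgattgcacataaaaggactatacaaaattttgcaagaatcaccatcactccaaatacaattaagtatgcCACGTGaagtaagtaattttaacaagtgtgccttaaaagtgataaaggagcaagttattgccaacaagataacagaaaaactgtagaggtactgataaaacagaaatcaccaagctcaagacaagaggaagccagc
The letters ACGTG stood 3 times in the Ldha window, once in that of Pfkm and in neither of the others. The Gapdh window lies inside the annotated span of that gene given below, so it is not upstream of the whole gene. Some genes have further RefSeq starts. Of the 2 windows of Ldha 1 held ACGTG, and of the 4 of Pfkm 2 did.

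Across all members, ACGTG was found in 1 or more windows of 20 of 35 genes (57.1%), against 18.5% of the 27025 genes with a window. By window, 24 of 52 member windows (46.2%) held it, against 16.6% of all 32851 windows. CACGTG stood in 7 of 35 members, against 6.86% of all genes. The member windows also held more CG pairs, with a median of 13 against 6. Among windows of 10 to 19 CG pairs, 11 of 23 member windows held ACGTG against 23.4% of all windows. For 0 to 9 CG pairs these values were 4 of 17 and 11.8%, and for 20 to 29 CG pairs 8 of 11 and 26.4%. These matches describe letters in a fixed window and are not sites of binding.

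In astrocytes the pathway was led by Aldoc, the brain aldolase. Its counts were 15141 and 14664 CPM in the cortical suspensions and 13499 and 13917 CPM in the hippocampal ones, a mean of 14305 ± 736 CPM (SD, n = 4). Aldoc thus held 49.3% of all member counts in astrocytes and was counted in 99.8% of cells. Per kilobase it stood at 4807 ± 247.5 CPM, above Ldhb at 1353 ± 38.0 CPM per kilobase, which was again clear of the next genes. Aldoa and Gapdh followed at 952 ± 34.6 and 950 ± 60.2 CPM per kilobase and did not differ beyond their spread. Eno1, the main enolase gene, stood at 561 ± 69.4 CPM per kilobase. Tpi1, for triosephosphate isomerase, had 361.3 ± 31.2, and Pygb, the brain glycogen phosphorylase, 308.5 ± 8.61 CPM per kilobase. Ldha at 268.3 ± 22.4 and Pkm, for pyruvate kinase, at 253.7 ± 12.6 CPM per kilobase did not differ beyond their spread.

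A middle range from 201.8 to 75.3 CPM per kilobase held 10 members. In falling order these were Pdk2, a kinase that switches off pyruvate dehydrogenase, Ugp2, which makes UDP-glucose, Gpi1, Pgm2, Pdhb, Slc2a1, Pfkm, Pygm, Pfkp and Pdha1. Neighbours in that run mostly overlapped, with Pdk2 at 201.8 ± 25.8 and Ugp2 at 200.1 ± 12.3 CPM per kilobase. Pdhb, Slc2a1 (the glucose carrier GLUT1) and Pfkm were at 158.5, 157.9 and 157.4 CPM per kilobase and could not be ordered. Pgk1 (68.4), Pfkl (46.6), Pcx (43.3), Pgam1 (42.4) and Gyg (41.7 CPM per kilobase), the glycogen primer, came next. Hk1 (26.2), Gys1 (22.96), Pdk4 (22.5) and Slc16a1 (21.4 CPM per kilobase), the lactate carrier MCT1, lay close together, with SDs from 2.23 to 4.93 CPM per kilobase. At the low end, Pgm1 had 13.98, Gbe1, the branching enzyme, 8.62, Pfkfb3 5.10, Eno2 3.85 and Pfkfb2 3.74 CPM per kilobase. Hk2 at 0.413 and Slc16a3, the lactate carrier MCT4, at 0.0659 CPM per kilobase were near 0, with counts in 3.26% and 0.505% of astrocytes.

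**Figure D1:**
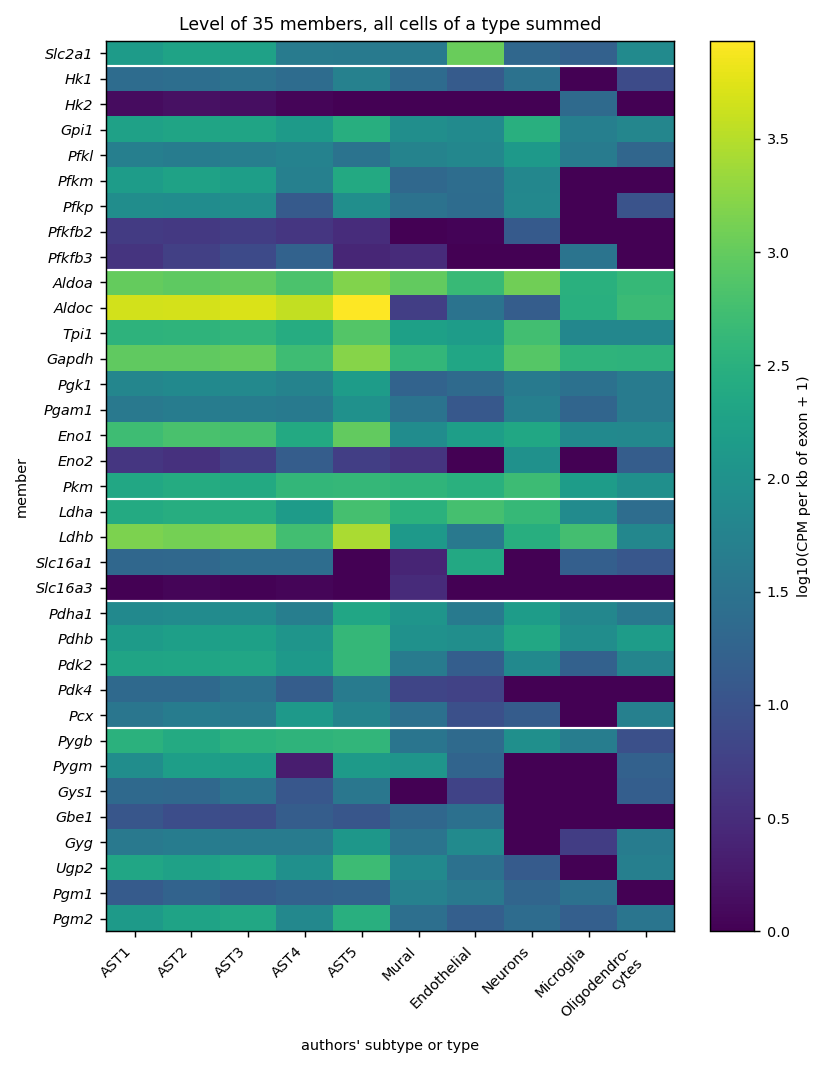
Level of each of the 35 members (rows, ordered by step from uptake to glycogen and split by white lines) in the authors' astrocyte subtypes and other cell types (columns), as log10 of CPM per kilobase of exon plus 1, with all cells of a type summed. Aldoc is brightest in all 5 astrocyte columns and dark in mural, endothelial and neuronal cells, while Slc2a1 is brightest in endothelial cells.

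These levels rest on uniquely mapped reads of Smart-seq2 libraries, which do not keep strand. Gapdh, Eno1, Pgk1, Pgam1 and Ldha have many processed copies in the genome, so reads shared with a near-identical copy were not counted and their levels are uncertain between genes. Exons of some members overlap another gene on GRCm38, by 27.8% of exon bases for Pfkfb2, 21.2% for Pdha1, 17.4% for Pfkp, 13.6% for Pgm2, 12.9% for Pkm and 12.3% for Gpi1. Reads in such a stretch cannot be assigned to 1 gene. The table's Pgm1 is ENSMUSG00000029171 on chromosome 5 and its Pgm2 is ENSMUSG00000025791 on chromosome 4, and later annotations exchange those symbols.

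Together the members took 3.08% and 2.98% of gene counts in the cortical astrocytes and 2.79% and 2.76% in the hippocampal ones. The astrocytes of each suspension were far above the mural cells, with 0.712% and 0.759% in cortex and 0.732% and 0.743% in hippocampus. Endothelial cells held 1.10%, 1.02% and 0.976%, and neurons held 1.199% and 1.106%. The difference of mural cells from the astrocytes of the same suspension was −2.17 ± 0.162 percentage points (SD, n = 4), lower in 4 of 4 suspensions. An exact two-sided sign-flip test gave p = 0.125, the smallest it allows with 4 suspensions. Without Aldoc the astrocyte share was 1.37% to 1.57%, and mural cells stayed below it at 0.711% to 0.758%. In endothelial cells and neurons the shares without Aldoc were 0.965% to 1.10% and 1.11% to 1.19%, so much of their distance to astrocytes lay in that gene.

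**Figure D2:**
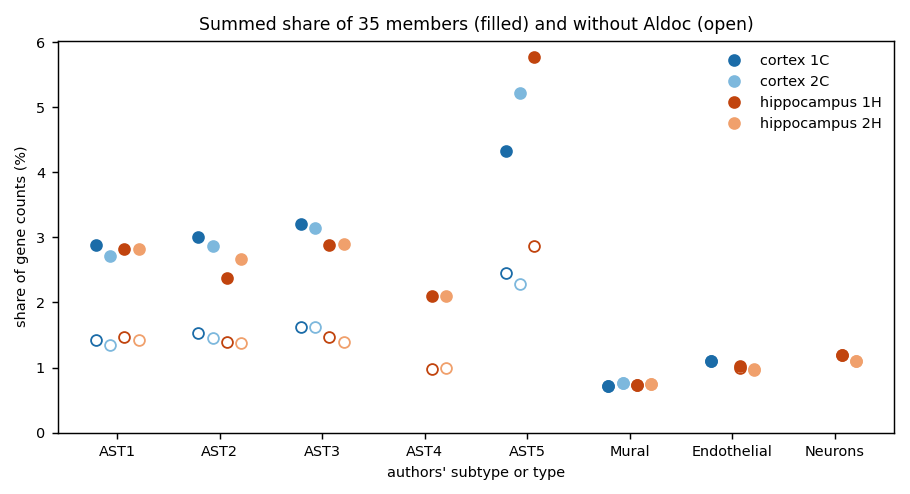
Share of gene counts taken by the 35 members (filled) and by the 34 members other than Aldoc (open), in percent, for each subtype or type (horizontal) and suspension (colour), sums of at least 5 cells. AST5 lies highest at 4.33% to 5.77%, AST4 at 2.10% and 2.09% lies below AST1 to AST3, and mural cells lie lowest at 0.712% to 0.759%. Per count of the ERCC spike-in RNA, not shown, the members of AST4 had 0.468 in 1H and 0.531 in 2H. AST1 to AST3 of those suspensions had 0.362 to 0.640, which overlapped.

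AST4 cells, which were nearly all hippocampal, showed lower levels at several steps of glycolysis. Of 35 members, 6 were lower and 0 higher than in the other astrocytes, against 0.527% of 18233 genes called lower and 0.11% called higher. On GRCm38 the 6 genes lie apart, with Pfkm at chr15:98092589-98132451 (plus strand), Pfkp at chr13:6579768-6648777 (minus strand), Gapdh at chr6:125161715-125166467 (minus strand), Eno1 at chr4:150236721-150248879 (plus strand), Ldhb at chr6:142490249-142507957 (minus strand) and Pygm at chr19:6384399-6398459 (plus strand), and counts cover all their annotated exons, untranslated ends included. The 6 were Pfkm, Pfkp, Gapdh, Eno1, Ldhb and Pygm, which cover the committed step of glycolysis, the triose and enolase steps after it, lactate dehydrogenase and glycogen breakdown. At an unadjusted p under 0.05, 3 members were higher and 15 lower, against 5.35% and 2.48% of all genes. Over all members the median log2 difference was −0.67, against 0.05 over all genes tested and −0.23 over genes of like abundance.

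Gapdh had 846 CPM in AST4 of suspension 1H and 708 CPM in that of 2H. In the 12 sums of AST1, AST2 and AST3 it ran from 1315 to 1590 CPM. AST4 therefore lay below every sum of those subtypes, with a log2 difference of −1.15 ± 0.0999 (SE) and an adjusted p = 3.28e-05 by edgeR. Eno1 had 586 and 670 CPM in AST4 against 1187 to 1744 CPM in AST1 to AST3, a log2 difference of −1.46 ± 0.168 (edgeR adjusted p = 4.14e-04). Ldhb, whose product favours lactate use, had 747 and 592 CPM against 1498 to 1995 CPM. Its log2 difference was −1.69 ± 0.157 (edgeR adjusted p = 7.47e-05), and again no AST4 sum reached the others. Counts of Ldhb were found in 79.1% of AST4 cells and in 96.6% to 97.8% of AST1 to AST3 cells.

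Phosphofructokinase, which commits sugar to glycolysis, is coded by Pfkm, Pfkl and Pfkp. Pfkm had 145 and 160 CPM in AST4 and 331.9 to 923 CPM in AST1 to AST3 (log2 difference −2.14 ± 0.276, edgeR adjusted p = 1.04e-03). Pfkp had 59.4 and 45.1 CPM against 197.9 to 454 CPM (log2 difference −3.18 ± 0.532, edgeR adjusted p = 9.19e-03). Counts of Pfkp were found in 6.6% of AST4 cells and in 42.8% to 51.1% of AST1 to AST3 cells. The liver form Pfkl had 188.7 and 227.9 CPM in AST4 and 71.6 to 274.5 CPM in AST1 to AST3, which overlapped. Pfkl thus made up 44.8% and 48.9% of phosphofructokinase counts per kilobase in AST4, against 7.7% to 30.9% in the sums of AST1 to AST3.

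Of the 6 called members, Pygm had the largest fitted difference. Pygm, the muscle form, had 0.03 and 6.09 CPM in AST4, against 178 to 577 CPM in AST1 to AST3, and was counted in 3.3% of AST4 cells and 34.4% to 55.3% of the others. Its fitted log2 difference was −7.21 ± 1.47 (edgeR adjusted p = 0.0427). With the suspension as block the adjusted p of Pygm was 0.061, so its call does not hold there. The brain form Pygb had 1493 and 1384 CPM in AST4 and 666 to 1432 CPM in AST1 to AST3 and was not called. Pygm therefore made up 0.0% and 0.6% of phosphorylase counts per kilobase in AST4. Among 57 other genes of the pathway that were tested, 1 was called, Ppp1r3g, a subunit that brings protein phosphatase to glycogen. Ppp1r3g was listed at 0 in both AST4 sums of 89 cells, against 44.9 to 380 CPM in AST1 to AST3. By a floor of 3 reads over those cells it was at least 4709.8-fold below the other astrocytes of 1H and 2H. That floor covers counting error only, and not how many cells hold a count. In 1H and 2H the sums of the other subtypes had 44.9 to 218.2 CPM. Of AST1 to AST3, cortical AST3 had the highest sums, and AST5 of 2C, a sum of 10 cells, had 568.0 CPM.

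No member was called higher in AST4, and 11 of 35 had a positive fitted difference. For Pcx, Pkm, Eno2 and Pfkfb3 both AST4 sums lay above every sum of AST1 to AST3. Pcx, pyruvate carboxylase, which refills the citric acid cycle and in the brain is found in astrocytes, had 628 and 523 CPM against 126.6 to 204.5 CPM in AST1 to AST3. Its log2 difference of 1.71 ± 0.375 missed the threshold (edgeR adjusted p = 0.0645). Pkm had 1038 and 1078 CPM against 397 to 810 CPM (log2 0.47 ± 0.18, edgeR adjusted p = 0.461). Eno2, the neuronal enolase, had 31.3 and 44.6 CPM against 0.00 to 16.98 CPM (edgeR adjusted p = 0.589). Pfkfb3, a bifunctional enzyme that sets fructose 2,6-bisphosphate, had 123.7 and 65.2 CPM against 3.94 to 50.5 CPM (edgeR adjusted p = 1). Scaling decided which side was called. With the ERCC spike-in counts as library size the median of all genes moved up by 0.64 on the log2 scale, Pcx (log2 2.34, adjusted p = 0.00238) and Pkm (log2 1.10, adjusted p = 0.0334) were called higher, against 0.41% of all genes, and 0 members were called lower, against 0.262%. The 6 genes named above stayed negative there, from −0.52 for Gapdh to −6.46 for Pygm, with adjusted p from 0.0515 for Pfkm to 0.16 for Gapdh. Without TMM factors the split was 1 higher (Pcx) and 6 lower, against 0.258% and 0.433% of all genes.

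The glucose carrier Slc2a1 had 119.6 and 154.2 CPM in AST4 against 441 to 939 CPM in AST1 to AST3, without overlap, but was not called (log2 −2.16 ± 1.36, edgeR adjusted p = 0.96). By limma it was among 11 members called, 4 higher and 7 lower, against 10.9% and 1.48% of all genes. AST4 held 2 sums, so leaving out 1H or 2H left it 1, which is then assumed to vary like the sums of the other subtypes. Without 2H only Pygm was called (adjusted p = 0.00849), Ldhb, Gapdh, Eno1, Pfkm and Pfkp having adjusted p from 0.0716 to 0.952 with log2 differences still from −0.96 for Gapdh to −2.99 for Pfkp. Without 1C, Pfkp (0.075) and Pygm (0.147) were no longer called, without 2C Pygm (0.173) and without 1H Pfkp (0.132), the other 5 staying called there. Without 2C, 1 member was also called higher. The share of all genes called higher in that fit is not given, so this call is not read as a result about the members. Early-response genes summed to 2463 to 3818 CPM in AST4, against 205.8 to 344.9 CPM in AST1, 245.2 to 806 CPM in AST2 and 916 to 1934 CPM in AST3. A list of 8 genes that respond to low oxygen summed to 211.7 to 223.6 CPM in AST4 and to 282.6 to 566 CPM in AST1 to AST3. Proliferation markers summed to 139.6 and 139.9 CPM in the AST4 sums and to at most 0.0607 CPM in AST1 to AST3. The part of these lists in the AST4 values was not tested.

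**Figure D3:**
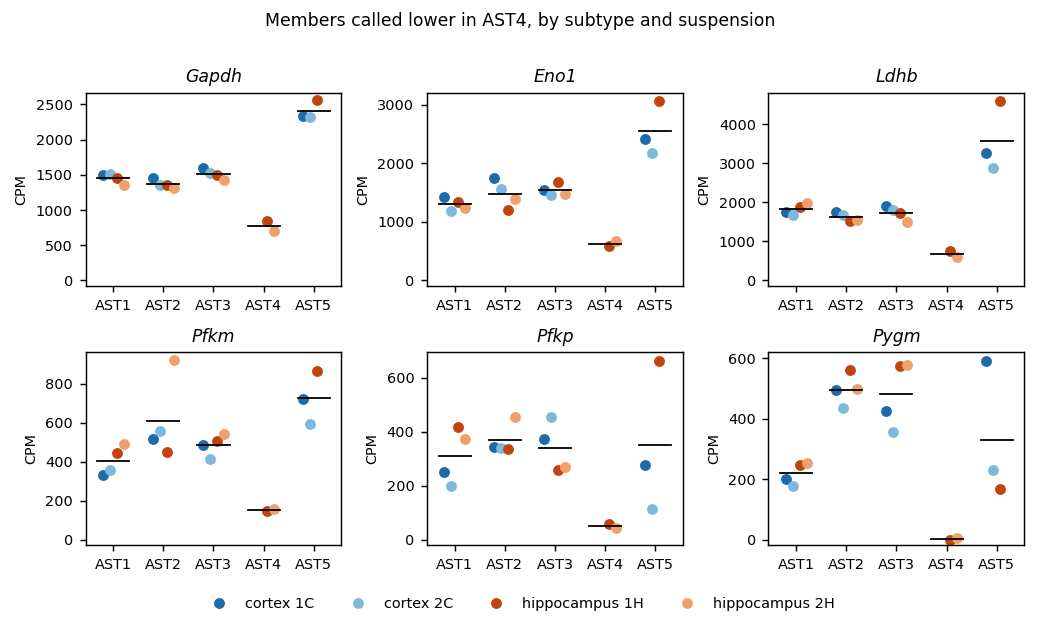
CPM of the 6 members called lower in AST4 (panels), by subtype (horizontal) and suspension (colour), with a bar at the mean. In every panel both AST4 points lie below all points of AST1, AST2 and AST3.

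AST5 cells had the highest summed share of the pathway, with 4.33%, 5.22% and 5.77% of gene counts in 1C, 2C and 1H. That was 2.19 ± 0.879 percentage points (SD, n = 3) above the other astrocytes of the same suspension, higher in 3 of 3 (exact two-sided sign-flip p = 0.25, the smallest 3 suspensions allow). Only 24 cells stand behind the 3 sums. Their gene counts per ERCC spike-in count were 17.8, 14.2 and 14.9, against 28.5, 27.9 and 19.5 in AST3 of those suspensions. Member counts per ERCC count were 0.773, 0.740 and 0.861 in AST5 of 1C, 2C and 1H, against 0.914, 0.876 and 0.561 in AST3. In AST1 and AST2 of those suspensions they were at most 0.602. Of 35 members, 5 were called higher and 1 lower, against 0.362% of all genes higher and 16.6% lower. The members' median log2 difference was 0.06, against −4.55 over all genes and −0.67 over genes of like abundance. Median genes per cell in the AST5 sums were 1405 to 1831, against 1801 to 2627 in AST1 to AST3.

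The members called higher in AST5 sat at triose, lactate, UDP-glucose and pyruvate steps. Tpi1 had 1340, 1206 and 1866 CPM in AST5 and 474 to 919 CPM in AST1 to AST3. Its fitted log2 difference was 0.58 ± 0.155 (edgeR adjusted p = 0.0202), less than the ratio of the CPM, which carry no TMM factors. Ldhb had 3263, 2880 and 4597 CPM against at most 1995 CPM (log2 0.43 ± 0.109, adjusted p = 0.0142). Ugp2 had 1060, 1496 and 2203 CPM against at most 680 CPM (log2 0.95 ± 0.23, adjusted p = 0.0115). Of the pyruvate dehydrogenase subunit genes, Pdha1 had 659, 757 and 455 CPM against 147.7 to 293.6 CPM (log2 0.89 ± 0.232, adjusted p = 0.0168), and Pdhb 734, 674 and 425 CPM against 156.5 to 287.8 CPM (log2 0.75 ± 0.234, adjusted p = 0.0421). For Pdhb the adjusted p was 0.0771 with the suspension as block. Dlat, Dld and Pdhx, for the other subunits of the complex, were not called, with fitted log2 differences of −1.29 ± 1.19, −0.53 ± 0.334 and 1.38 ± 1.07.

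Slc16a1 was the member called lower in AST5. It was listed at 0 in all 3 sums and in 0 of 26 AST5 cells, which allows a share of cells with a count of up to 11.5%. In AST1, AST2 and AST3 it had 38.6 to 125.5 CPM and was counted in 19.6% to 28.5% of cells. By a floor of 3 reads over the 24 summed cells, the AST5 sums were at least 984-fold below the other astrocytes of those 3 suspensions (edgeR adjusted p = 2.19e-06). That floor covers counting error only, and by the share of cells allowed the difference could be far smaller. The glucose carrier Slc2a1 had 228.9, 147.04 and 0.00 CPM in AST5 against 441 to 939 CPM in AST1 to AST3 and was not called (adjusted p = 0.127). Of 57 other pathway genes tested, Gsk3b, a kinase that restrains glycogen synthase, was called higher, and 10 were called lower, a share near the 16.6% of all genes: Slc2a12, Adpgk, Pfkfb4, Bsg, Pdk1, Pygl, Gaa, Pgm3, G6pc3 and Prkaa2. Of these, Slc2a12, Adpgk, Pfkfb4, Pdk1, Pygl, Pgm3 and Prkaa2 were at 0 in all 26 AST5 cells, which allows up to 11.5%. Pdk1, Pygl and Prkaa2 were counted in at most 9.23%, 8.77% and 8.44% of cells in the sums of AST1 to AST3. Slc2a12 passed 11.5% only in AST2 of 1H, a sum of 10 cells. For these, 0 of 26 cells does not show that fewer cells hold them. Gaa, the lysosomal enzyme that degrades glycogen, had 283.1, 107.8 and 284.9 CPM against 470 to 781 CPM (log2 −2.09 ± 0.265, adjusted p = 8.86e-05).

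Scaling changed how many members were called in AST5, and the 6 named above kept their direction under each. Without TMM factors 16 members were called higher and 1 lower, against 2.41% and 14.7% of all genes. With ERCC counts 9 were higher and 1 lower, against 0.639% and 15.4%, with Slc16a1 the lower member each time. The 5 higher calls were fragile to the samples used. Without 1C only Ugp2 of the 5 stayed called, without 2H only Tpi1, without 2C only Ldhb, and without 1H only Pdha1 and Pdhb. The others of the 5 had adjusted p from 0.0664 to 0.261. Slc16a1 stayed called each time (adjusted p up to 0.00101). These fits called 3 to 5 members in all, some of them not among the 6. Without 1C, 1 member was higher and 2 were lower, and the same split was found without 2H. The shares of all genes called in these fits are not given. The counts are therefore not read as results about the members. Early-response genes summed to 0.115 to 121.02 CPM in AST5 and astrocyte markers to 13489 to 15124 CPM, against 18682 to 23917 CPM in AST1 to AST3. The 5 oligodendrocyte markers Mog, Mag, Mobp, Cldn11 and Ermn summed to 0.0 to 216.5 CPM in the AST5 sums and to at most 31.7 CPM in AST1 to AST3. Of them Mog, Mag and Ermn were at 0 in AST5, and Mobp had 78.3 CPM over all AST5 cells. The part of these lists in these values was not tested.

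AST1, AST2 and AST3 are the large subtypes, and what was called in them depended on how the other subtypes were weighted. With weights by cell number, 0 of 35 members were called by edgeR in each of the 3 comparisons, against 0.0384%, 0.0548% and 0.0% of all genes. At an unadjusted p under 0.05 there were 5, 6 and 4 members, against 4.38%, 2.65% and 1.93% of all genes. DESeq2 also called 0 in each, against 5.25%, 4.89% and 3.99% of all genes. By limma 0 were called in each, against 0%, 0.0384% and 0.0165%. With the other subtypes weighted equally, 3, 3 and 6 members were called, all higher, against 5.52%, 5.09% and 4.95% of all genes. They were Gapdh, Ldhb and Slc16a1 in AST1, Pfkm, Pygm and Slc16a1 in AST2, and Eno1, Gapdh, Ldhb, Pgm2, Pygm and Slc16a1 in AST3. Pygb had the lowest unadjusted p among them, in AST2. It had 1017, 975, 666 and 857 CPM in AST2, 1323, 1210, 1302 and 1262 CPM in AST1, and 1432, 1409, 897 and 1050 CPM in AST3. The AST2 difference was −0.64 ± 0.164 on the log2 scale (edgeR adjusted p = 0.703).

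Of these 3 subtypes AST2 was thus the lowest for Pygb in each suspension, and AST1 was the lowest of the 3 for Pygm. AST1 had 201.5, 178.4, 245.3 and 254.9 CPM of Pygm in 1C, 2C, 1H and 2H, AST2 had 493.9, 434.7, 559.2 and 496.5 CPM, and AST3 had 424.4, 355.3, 573.7 and 577.5 CPM. Every AST1 sum lay below every AST2 and AST3 sum, and those last overlapped. The share of Pygm in phosphorylase counts per kilobase was 16.7% to 21.6% in AST1, 37.7% to 53.3% in AST2 and 25.5% to 46.5% in AST3. With weights by cell number the differences of this gene were not called. The summed share of the pathway was higher in AST3 than in the other astrocytes of 4 of 4 suspensions, by 0.185 ± 0.0556 percentage points. In AST2 the difference was negative in 4 of 4, from −0.416 to −0.0986 points. Both exact sign-flip tests gave p = 0.125, the smallest they allow.

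Mural cells, the pericytes and smooth muscle cells of vessels, had lower levels of a part of the pathway. Of 35 members, 11 were called lower and 0 higher, against 12.7% and 2.37% of 17404 genes. The members' median log2 difference was −2.04, against −1.36 over all genes and −0.39 over genes of like abundance. The 11 were Gpi1, Pfkm, Pfkfb2, Aldoc, Tpi1, Gapdh, Eno1, Slc2a1, Pygb, Gys1 and Pdk2.

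Aldoc, at 13499 CPM or more in astrocytes, had 12.7, 1.15, 11.04 and 19.2 CPM in mural cells (log2 −11.19 ± 2.1, edgeR adjusted p = 0.0139). Eno1 had 149.4, 146.1, 247.9 and 200.03 CPM in mural cells against 1232 to 1637 CPM in astrocytes (log2 −3.52 ± 0.34, adjusted p = 3.31e-04). Gapdh had 590, 445, 632 and 583 CPM against 1304 to 1521 CPM (log2 −1.94 ± 0.208, adjusted p = 5.24e-04). No mural sum of these genes reached an astrocyte sum. Pygb had 155, 120.3, 82.4 and 162.9 CPM against 1156 to 1231 CPM (log2 −3.81 ± 0.714, adjusted p = 0.0139). Slc2a1 had 89.6, 194.9, 143.9 and 124.3 CPM against 436 to 604 CPM (log2 −2.50 ± 0.326, adjusted p = 0.00188).

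Other members were not called in mural cells. Pkm had 973, 1208, 774 and 1146 CPM there and 632 to 704 CPM in astrocytes, with a fitted log2 difference of 0.03 ± 0.174 (adjusted p = 0.964). Without TMM factors, which moved the median of all genes by 0.57, Pkm was called higher (log2 0.63, adjusted p = 0.0409), and the split was 1 higher and 10 lower, against 3.17% and 11.6% of all genes. All 4 mural sums of Pkm lay above every astrocyte sum. Aldoa had 1755, 2544, 1666 and 1658 CPM against 1678 to 1815 CPM, with a fitted log2 difference of −0.48 ± 0.157 (adjusted p = 0.0658). Pygm, so low in AST4, had 388.4, 375.5, 332.96 and 257.8 CPM in mural cells against 283.8 to 433 CPM in astrocytes. Pfkfb2, the partner gene of Pfkfb3, was counted in none of the mural cells, which allows a share of up to 2.24%, against 6.74% of astrocytes. By a floor of 3 reads, which covers counting error only, its mural sums were at least 1076-fold lower. By the share of cells allowed the difference could be far smaller.

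With the suspension as block, 9 members were called lower in mural cells, against 1.32% of all genes, Pfkfb2 (adjusted p = 0.117) and Gys1, glycogen synthase (0.121), being lost. Slc2a1, Gapdh and Eno1 were called whichever suspension was left out. Without 1C those 3 alone were called, as 3 of 35 members, without 2C also Gpi1, without 1H also Pygb, Pfkm and Pdk2, and without 2H also Pfkm and Pdk2 among the 11, the lost members having adjusted p from 0.0576 to 0.142. Of all genes, 0.628% to 1.01% were lower in these 4 fits. Early-response genes summed to 6051 to 21793 CPM in mural cells and 569 to 965 CPM in astrocytes, and their part in these values was not tested. Of 55 other pathway genes tested, 10 were lower and 0 higher, against the 12.7% and 2.37% of all genes given above: Slc2a12, Slc2a13, Eno3, Ldhd, Phkg1, Gaa, Ppp1r3g, Pgm2l1, Prkaa2 and Pgp. Phkg1, the catalytic subunit of phosphorylase kinase, had 195.6 to 226.9 CPM in astrocytes and at most 0.0613 CPM in mural cells.

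Endothelial cells, which form the blood-brain barrier, had a higher level of the glucose carrier and lower levels of glycolytic enzymes. Of 35 members, 1 was called higher and 9 lower, against 1.59% and 4.02% of all genes. Slc2a1 was the higher member, with 3918, 3778 and 3116 CPM in 1C, 1H and 2H against 436 to 604 CPM in astrocytes (log2 2.06 ± 0.339, edgeR adjusted p = 0.00779). Every endothelial sum was above every astrocyte sum, and Slc2a1 was counted in every endothelial cell. Slc16a1 had 1058, 1229 and 1139 CPM against 78.6 to 102.6 CPM in astrocytes, also without overlap, but its fitted log2 difference of 2.50 ± 2.07 was not called (adjusted p = 0.439). Bsg, the partner protein that carries MCT1 to the membrane, was the 1 gene of 55 other pathway genes called higher, at 18740, 13092 and 13696 CPM against 544 to 698 CPM (log2 3.90 ± 0.239, adjusted p = 6.72e-05).

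The 9 lower members in endothelial cells were Gpi1, Pfkm, Aldoa, Tpi1, Gapdh, Eno1, Pygb, Pygm and Pdk2. Gapdh had 287.98, 334.1 and 362.7 CPM against 1304 to 1521 CPM (log2 −2.93 ± 0.244, adjusted p = 2.00e-04). Aldoa had 833, 712 and 928 CPM against 1678 to 1815 CPM (log2 −1.83 ± 0.18, adjusted p = 4.71e-04). Pdk2 had 41.8, 27.3 and 37.03 CPM against 377.2 to 507 CPM (log2 −4.45 ± 0.651, adjusted p = 0.00416). Ldha had 1237, 446 and 1205 CPM against 452 to 550 CPM and was not called. Pfkm (adjusted p = 0.0695) and Pygm (0.0549) were lost with the suspension as block, and 8 members were called there, against 1.87% of all genes. Under both other scalings Tpi1, Pygm and Pfkm were lost, leaving 1 higher and 6 lower, against 2.46% and 3.08% of all genes without TMM factors and 2.04% and 2.97% with ERCC counts.

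Leaving out 1C kept 3 endothelial calls, Aldoa, Gapdh and Eno1, and added Ugp2, which was not among the 10, with 0.817% of all genes lower in that fit. Leaving out 2H kept 4, Aldoa, Pfkm, Pdk2 and Gapdh, against 1.18% of all genes lower. Slc2a1 had an adjusted p = 0.0706 without 1C and 0.0662 without 2H, with log2 differences of 2.20 and 2.04. Without 1H, Tpi1 (0.0519) and Gpi1 (0.1) were lost, and without 2C, where the astrocytes of 1 suspension left the fit, Tpi1 (0.0694), Pygm (0.0959) and Pfkm (0.0778). Besides Bsg, 9 of the 55 further pathway genes were lower, against 4.02% of all genes: Slc2a3, Mpc1, Phkg1, Gaa, Ppp1r3d, Ppp1r3g, Mdh1, Got1 and Prkaa2. Early-response genes summed to 8910 to 15842 CPM in the endothelial sums, and their part was not tested.

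Neurons were 17 hippocampal cells, and their 6 markers summed to 2766 and 3126 CPM, with Rbfox3 at 0. Of 35 members, 5 were called lower and 0 higher, against 2.65% and 0.201% of all genes. Pygm and Gbe1 were at 0 in both sums and in 0 of 17 cells, which allows a share of up to 17.6%. By a floor of 3 reads, their sums were at least 2921-fold and 316.7-fold below the astrocytes of 1H and 2H (edgeR adjusted p = 0.00108 and 0.00106). That floor covers counting error only. Of all astrocytes, 43.7% had a count of Pygm and 8.37% one of Gbe1. For Gbe1 this lies under the share allowed in neurons, so 0 of 17 cells does not show that fewer cells hold it. Slc16a1, Gys1, Gyg, Pdk4, Hk2, Pfkfb3 and Slc16a3 were also at 0 in both sums without being called. Slc2a1 had 37.1 and 94.6 CPM against 436 to 604 CPM (log2 −3.92 ± 0.479, adjusted p = 0.00123). Eno2, the neuronal enolase, had 327.7 and 213.8 CPM against 8.82 to 13.3 CPM in astrocytes, without overlap.

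Gapdh (log2 −1.42 ± 0.277, adjusted p = 0.0191) and Eno1 (log2 −2.42 ± 0.441, adjusted p = 0.0136) completed the neuronal calls. Both were lost under the other scalings, which moved the median of all genes by 1.05 and 1.18 and left 1 higher (Pkm) and 3 lower, against 0.695% and 2.19% of all genes without TMM factors and 0.842% and 2.1% with ERCC counts. Both were also lost without 1C, without 1H or without 2H, with adjusted p from 0.0629 to 0.325. Neurons held 2 sums, so leaving out 1H or 2H left them 1, which is then assumed to vary like the sums of the other types. Slc2a1, Pygm and Gbe1 stayed called in these fits. With the suspension as block the 5 members were called, against 1.62% of all genes lower. Without cells carrying markers of another type 9 members were called lower, against 5.09% of all genes. All 17 neurons stayed in that fit, while every endothelial sum fell under 5 cells and left it. Among 55 other pathway genes, 4 were lower, against 2.65% of all genes, namely Bsg, Phkg1, Ppp1r3d and Ppp1r3g. Early-response genes summed to 1771 and 1821 CPM in neurons, and their part was not tested.

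Microglia and oligodendrocytes were too few for a test. Over all cells of a type, Hk2, the inducible hexokinase, made up all hexokinase counts per kilobase in the 11 microglia, with 216.98, 110.7, 65.5 and 15.8 CPM in 1C, 2C, 1H and 2H, where Hk1 was at 0. In astrocytes Hk2 had 1.49 to 4.11 CPM and made up 1.0% to 2.8% of hexokinase counts. The microglia of 2C also held 4288 CPM of astrocyte markers and 3406 CPM of Aldoc.

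For steps coded by more than 1 gene, the balance of the partner genes differed between cell types. Shares here are counts per kilobase of 1 gene among those of its step. For lactate dehydrogenase, Ldha took 17.1%, 16.6%, 17.1% and 15.3% in the astrocytes of 1C, 2C, 1H and 2H. In mural cells it took 36.6%, 66.7%, 77.6% and 83.7%, a difference of 49.6 ± 21.46 percentage points (SD, n = 4), higher in 4 of 4 suspensions. Endothelial cells had 99.7%, all of the counts and 86.02% and neurons 62.2% and 54.5%. Astrocytes thus had the lowest range of these 4 types. Over all cells of a type, the 11 microglia stood lower, at 11.8%, and the 9 oligodendrocytes at 26.9%, both too few for a test. AST4 stood at 18.9% and 26.1%, and AST1 at 13.1% to 16.3%.

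For aldolase, Aldoa took 16.4% to 16.9% in astrocytes and 99.3% to 99.97% in mural cells, a difference of 83.1 ± 0.422 points. Endothelial cells had 99.98%, 83.2% and 93.2% and neurons 97.8% and 99.98%. For phosphofructokinase, Pfkl took 14.9% to 17.6% in astrocytes and 50.8% to 62.1% in mural cells, 38.5 ± 4.86 points higher. Pfkm took 53.1% to 58.3% in astrocytes and 13.8% to 23.1% in mural cells, a difference of −36.1 ± 5.35 points. Pfkp was at 26.9% to 30.3% and 16.2% to 31.7%, which overlapped. For glycogen phosphorylase, Pygm took 23.9% to 32.5% in astrocytes and 68.3% to 84.6% in mural cells, 49.6 ± 8.04 points higher.

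Each of the differences of Ldha, Aldoa, Pfkl, Pfkm and Pygm had the same sign in 4 of 4 suspensions, with an exact two-sided sign-flip p = 0.125, the smallest possible. Adjusted over the 11 shares compared, this p was 0.229, so the design could not pass 0.05. For enolase, Eno2 took 29.3% and 33.6% in neurons, 4.6% and 5.7% in AST4 and at most 0.804% in the astrocytes of a suspension. Pdk4 took 8.85% to 11.7% of pyruvate dehydrogenase kinase counts in astrocytes and 0.0% to 20.4% in mural cells, with no consistent sign. Pfkfb3 took 52.8% to 63.7% against Pfkfb2 in astrocytes and all of the counts in the 3 mural sums with a count of either, of which the share in 2H rests on 1 read. Of the lactate carriers, Slc16a3 took at most 0.662% against Slc16a1 in astrocytes. In mural cells it took 99.9% in 1H and 13.01% in 2H, with 21.4 and 3.12 CPM, and neither gene had a count in 2 of the 4 sums.

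**Figure D4:**
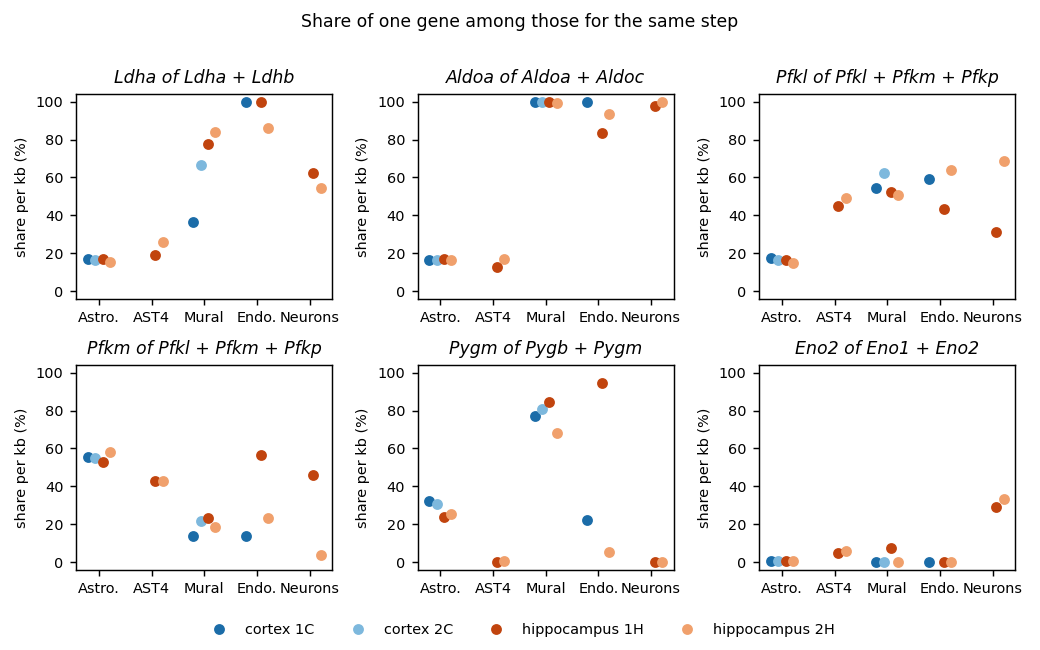
Share of 1 gene among those for the same step, in percent of counts per kilobase of exon, for all astrocytes, AST4, mural cells, endothelial cells and neurons (horizontal), each point a suspension (colour). Astrocytes keep within 15.3% to 17.1% for Ldha and 16.4% to 16.9% for Aldoa while mural cells lie at 36.6% or more and at 99.3% or more, and Eno2 reaches 29.3% and 33.6% in neurons.

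Hippocampal and cortical astrocytes were compared next, as all astrocytes and then within subtypes. In all astrocytes 0 of 35 members were called by edgeR, against 0.0% of 19160 genes. At an unadjusted p under 0.05 there were 6 members, all lower in hippocampus, against 13.6% of all genes in either direction and 7.04% lower. DESeq2 called 5, against 4.72% of all genes lower, and limma 2, against 1.73%. Within thermal block 1, 0 members were called in all astrocytes, AST1, AST3 and mural cells. Those fits held 52 and 61 astrocytes of 1H and 2H, 12 and 8 of them AST3, and 7 and 9 mural cells. The shares of all genes in those fits are not given. These counts are therefore not read as results about the members or the block. Both hippocampal suspensions lay below both cortical ones for 14 of 35 members, against 24.1% of all genes, and above them for 1 member, Hk2, against 21.9%. The members' median log2 difference was −0.13, against 0.01 over all genes. With ERCC counts as library size it was −0.34, and the median of all genes was −0.20.

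Slc2a1 had 568 and 604 CPM in cortex and 436 and 451 CPM in hippocampus (log2 −0.38 ± 0.0672, edgeR adjusted p = 0.218). Pygm had 432.9 and 378.8 CPM in cortex and 283.8 and 305.9 CPM in hippocampus (log2 −0.44 ± 0.091, adjusted p = 0.231). Pgm2 had 574 and 604 CPM against 464 and 423 CPM (log2 −0.38 ± 0.0774, adjusted p = 0.231), and Eno1 1637 and 1497 CPM against 1347 and 1232 CPM (log2 −0.26 ± 0.0696, adjusted p = 0.264). The mix of subtypes moved with region. AST1 made up 12.36% and 11.02% of the cortical astrocytes of 1C and 2C and 68.96% and 64.02% of the hippocampal ones of 1H and 2H. For AST2 these shares were 52.06% and 56.71% against 2.54% and 5.14%, and for AST3 33.41% and 30.26% against 16.54% and 19.16%. AST4 made up 0.434% and 0.0% of cortical and 10.4% and 11.2% of hippocampal astrocytes. The part of this mix in the region values was not tested.

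Within subtypes some of these genes had other directions. Pygm averaged 190 CPM in cortical and 250.1 CPM in hippocampal AST1, and 390 and 576 CPM in AST3, so in each subtype both hippocampal sums were above both cortical ones. Pgm2 was higher in hippocampal AST1 and overlapped in AST3. Slc2a1 kept its direction in AST1, with 562 and 567 CPM against 441 and 442 CPM, but not in AST3, where all 4 sums lay from 570 to 583 CPM. Slc16a1 had 51.3 and 38.6 CPM in cortical AST1 and 86.2 and 106.8 CPM in hippocampal AST1. None of these within-subtype differences was called.

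In AST1, 0 members were called against 0.0% of 21204 genes, with 2 at an unadjusted p under 0.05, against 2.9% of genes. There 6 members were lower without overlap in hippocampus, against 10.8% of genes, and 12 higher, against 23.2%. In AST3, 0 were called against 0.00472% of genes, with 1 at an unadjusted p under 0.05, against 2.32%. There 19 of 35 were lower without overlap, against 20.4% of genes, and 4 higher, against 10.7%. DESeq2 called 0 members in either subtype, against 5.86% of all genes in AST1 and 4.51% in AST3, and limma 0, against 0.033% and 0.0896%. In AST2, with 10 and 22 hippocampal cells, 0 were called against 1.07% of genes, and 6 had an unadjusted p under 0.05, all lower, against 9.65% of genes lower. Ugp2 had 556 and 499.5 CPM in cortical and 217.9 and 311.9 CPM in hippocampal AST2 (log2 −1.09 ± 0.251, adjusted p = 0.0807), and limma called this 1 gene, against 0.179% of all genes lower.

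The region difference of AST1 against that of AST3 was tested directly, with 0 members called by edgeR against 0.0% of genes. There were 2 at an unadjusted p under 0.05, against 4.41% of genes, 0 by DESeq2, against 5.51%, and 0 by limma, against 0%. Pkm had the lowest unadjusted edgeR p among the members, with 496 and 397 CPM in cortical and 660 and 599 CPM in hippocampal AST1, and 671 and 639 against 629 and 484 CPM in AST3. Its difference of differences was 0.71 ± 0.246 on the log2 scale (adjusted p = 1). In mural cells 0 of 35 members were called between regions, against 0.0247% of 20225 genes. At an unadjusted p under 0.05 there were 4, all higher, against 5.79% of genes higher, and DESeq2 called 3, Eno2, Pcx and Slc16a1, all higher in hippocampus, against 9.9% of all genes higher. Without overlap, 9 members were higher in hippocampal mural cells, against 14.5% of genes, and 6 lower, against 6.98%.

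**Figure D5:**
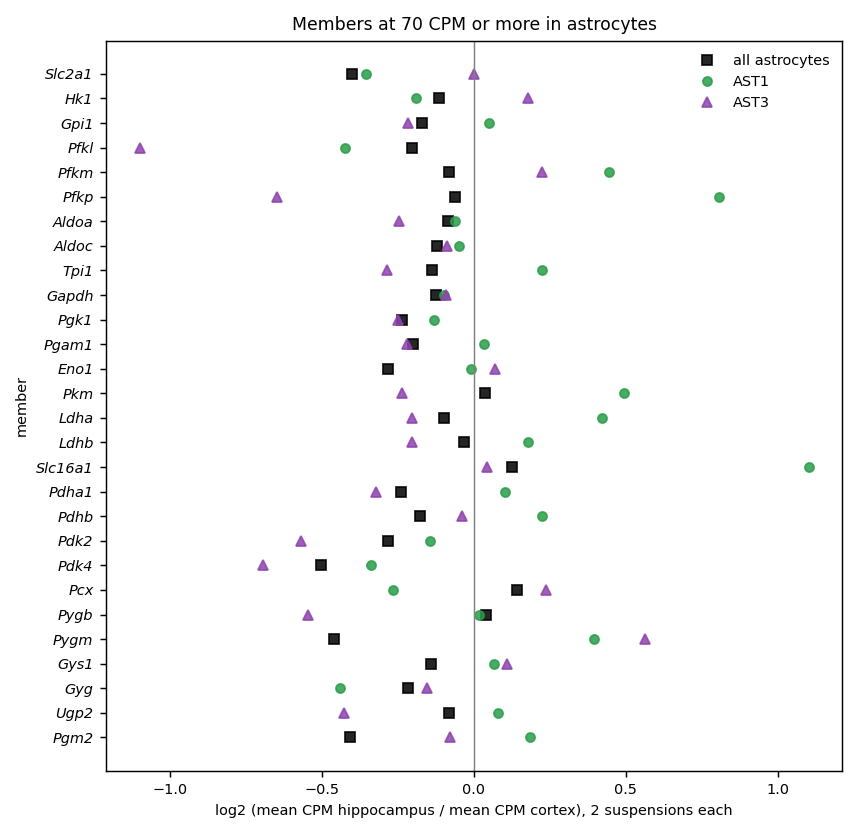
Log2 ratio of mean CPM in hippocampus to that in cortex (horizontal, 2 suspensions each) for the 28 members at 70 CPM or more in astrocytes, in all astrocytes (squares), AST1 (circles) and AST3 (triangles). Squares lie mostly just left of 0, while Pfkp, Pkm and Slc16a1 have AST1 to the right, and Pygm has both subtypes to the right and all astrocytes to the left.

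By summed share, hippocampal minus cortical astrocytes gave −0.257 percentage points, with no overlap (exact two-sided permutation p = 0.333, the smallest that 2 against 2 allows). The difference was −0.281 points in AST3 and −0.412 points in AST2, again with no overlap. It was 0.0183 points in AST1 and 0.00209 points in mural cells, where the regions overlapped. The 16 cortical plates had shares from 2.73% to 3.26% and the 16 hippocampal plates from 2.47% to 3.02%. Detection of members followed depth little in astrocytes. The median share of cells with a count was 44.9% over members at full depth and 43.5% with each cell thinned to 50000 counts. In mural cells these medians were 16.4% and 11.9%, in endothelial cells 6 of the 30 cells and 16.7% and in neurons 35.3% and 29.4%.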

How the data were processed

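Single cells of mouse cortex and hippocampus were sequenced by the authors. Their deposited files hold whole read counts per gene and cell, made by the authors with FastQC 0.11.4, STAR 2.5.2b on GRCm38.p5 and HTSeq from uniquely mapped reads, with 92 ERCC spike-ins. A table of the whole series has 1999 columns not used here. Of 2030 cells with a count file, 1982 had a type, 33 were missing from the copy of the type list and 15 had none. The members and lists were chosen with earlier results of these data known, and 1 marker gene is not reported here.

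Raw counts were summed per subtype or type and suspension, in sums of at least 5 cells, and tested with edgeR 4.0.16 (robust quasi-likelihood, TMM factors, filterByExpr, Benjamini-Hochberg over all genes tested, R 4.3.3). Subtypes and types were fitted with region as a term over 17 and 13 sums. DESeq2 1.42.0 and limma 3.58.1, on the mean over cells of log2(CPM + 1), were alternatives, as were other scalings, filters, minimum sums and thresholds. Leaving out each suspension was another. The script was tested on simulated data, whose spread between sums was set smaller than that of the data. That test checked the code and does not bear on the calls. Summed and partner-gene shares were compared by exact tests over suspensions, written with NumPy 2.4.6. The other tables were made with SciPy 1.17.1 and pandas 2.3.3. Types compared within a suspension come from the same animals, so the suspension pairs them, and it was added as a block in an alternative fit. All 35 members are named, and other pathway genes are named where called. Floors of 3 counts cover counting error only, because reads have no molecular identifiers. P-values of the region comparison of all astrocytes and of the exact tests measure the spread between suspensions, of which there are 2 per region. The other edgeR fits used 17 or 13 sums of 4 suspensions. Sums of the same animals entered there as separate, so those p-values measure the spread between sums. Only the fit with the suspension as block takes up that pairing.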

Additional observations from a re-analysis of the deposited data

Results flagged for a closer look

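In mural cells, 1 suspension stood far from the other 3 in 2 partner-gene shares. The share of Hk2 in hexokinase counts per kilobase was 0.369% in the mural cells of 2H and 0.0% in the others. The share of Eno2 in enolase counts was 7.23% in the mural cells of 1H and at most 0.148% in the others. For each, the gap to the nearest value over the whole range passed Dixon's critical value of 0.829. For Hk2 the other 3 values were exactly 0, so any count in 2H would have passed, whatever its size. Such a gap was looked for in 25 groups of 4 values, and chance flags about 1 in 20 groups of continuous values, a rate that does not hold for values at 0.

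The members Eno1 and Pdk2 had opposite region differences in 2 cell types, without overlap between regions in either. Hippocampal minus cortical mean levels of Eno1 were 76.2 CPM in mural cells and −278 CPM in astrocytes. For Pdk2 they were 27.4 CPM in mural cells and −88.7 CPM in astrocytes. Both were among 9 members higher without overlap in hippocampal mural cells, against 14.5% of genes, and among 14 lower in hippocampal astrocytes, against 24.1%. Of the genes tested in both cell types, 3.98% had this pair of directions without overlap, as had 2 of 35 members. The opposite pair was found for 0 members and 1.6% of genes. These differences between cell types were not tested.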

How the results depend on the processing

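The 38 single calls were recomputed under 564 alternatives in all, of which 446 kept direction and call, 118 kept direction without the call and 0 turned. For the 14 counts of called members, 50 alternative values moved by over 1.5 times and all the others stayed within it. With the suspension as replicate block, 5 members were called in AST4, 5 in AST5, 9 in mural cells, 8 in endothelial cells and 5 in neurons, against 6, 6, 11, 10 and 5. Shares of all genes in these fits stand above for mural, endothelial and neuronal cells. For AST4 and AST5 none is given, so their counts are not read as results about the members. No paired analysis was possible for regions because each suspension holds 1 region. For the region difference of AST1 against that of AST3, a block within region was chosen after seeing the data and gave 0. With the other subtypes weighted equally, AST1, AST2, AST3, AST4 and AST5 had 3, 3, 6, 13 and 10 called, against 5.52%, 5.25%, 4.95%, 2.82% and 16.7% of all genes. The shares of all genes called in the same fit follow each count in brackets. AST4 had 2 with ERCC counts (0.672%), 10 by DESeq2 (11.5%), 11 by limma (12.4%), 12 with genes in more than 25% of cells (10.2%) and 11 with at least 10 cells per sum (1.82%). AST5 had 17 without TMM factors (17.1%), 10 with ERCC counts (16.1%), 10 by DESeq2 (43.7%), 14 by limma (18.6%), 1 without a low-count filter (10.5%), 13 with genes in more than 25% of cells (21.6%) and 1 at an adjusted p under 0.01 (8.98%). Between regions, all astrocytes had 5 by DESeq2 (9.7%), 2 by limma (2.64%) and 4 with genes in more than 25% of cells (21.9%). AST2 had 1 with ERCC counts (1.06%), by limma (0.311%), with at least 10 cells (2.91%) and at an adjusted p under 0.1 (1.75%), and 3 with 0 freeze-thaw cycles of the template-switching oligonucleotide (2.96%). Mural cells had 3 by DESeq2 (12.5%) and 3 with 1 freeze-thaw cycle (5.54%). Against astrocytes, mural cells had 23 by limma (22.8%), 17 with at least 10 cells (13.5% lower) and 5 at an adjusted p under 0.01 (2.03%). Endothelial cells had 21 by DESeq2 (36.5%), 25 by limma (27.9%), 16 with at least 10 cells (4.65%), 16 without the region term (18.5%), and 6 and 20 at an adjusted p under 0.01 and 0.1 (1.88% and 26.3%). Neurons had 13 by DESeq2 (30.4%), 20 by limma (12.6% higher and 14.4% lower), 9 without cells with markers of another type (5.59%) and 3 at an adjusted p under 0.01 (1.82%). The cause of these moves was not tested. Leaving out 1 suspension gave 3 to 5 in AST5, 3 to 6 in mural and 4 to 8 in endothelial cells. These counts stand here without the share of all genes in the same fits and are not read as results about the members. For AST4, neurons and the regions some of these fits left 1 sum in a group, so their counts are not given. Small differences of shares turned. For the summed share, leaving out 1 suspension gave −0.139 to 0.0182 points for AST1 against other astrocytes, −0.0679 to 0.105 for region in AST1 and −0.0211 to 0.0253 for region in mural cells, and per ERCC count the latter pair was −0.0138 and −0.0556 (log2). For region in astrocytes, leaving out 1 suspension gave −1.53 to 0.244 points for Ldha, −2.09 to 3.10 for Pfkm, −0.978 to 2.42 for Pfkp, −0.0989 to 0.180 for Eno2 and −2.46 to 7.15 for Pfkfb3. As a mean over cells Hk2 gave −0.0238, Pfkl 0.602 and Pfkp −1.51. For mural cells against astrocytes the ranges were −4.75 to 0.896 for Pfkp, −0.610 to 1.81 for Eno2 and −4.05 to 3.36 for Pdk4. The median share of mural cells with a count was 16.4%, 11.9% when thinned and 12.7% at 10 CPM or more. Not run for want of sums were neurons at 10 cells, endothelial cells without those with markers of another type, and AST2 regions in 1 PCR block. Sums of few cells stand behind the AST5, endothelial and neuronal values.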
